A study of Drosophila melanogaster with 11 samples.

Results

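Whole Drosophila melanogaster embryos collected 2–4 h after egg deposition were compared with embryos collected at 14–14.5 h, when terminal differentiation begins. The members were chosen by their labelled window alone, 3 libraries at 2–4 h and 2 at 14–14.5 h, which are 5 of the 11 polyA mRNA-seq libraries of the study. Both windows were wild-type Oregon-R embryos from population cages kept at 25 °C, dechorionated in bleach before RNA extraction. Replicates were independent collections on different days, and the study places embryos of the later window at stage 16. The remaining 6 libraries, 4 at 14–17 h and 2 at 17–17.5 h, are used below only to show where the 14–14.5 h embryo differs from its neighbours in time.

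The fly embryo starts from RNA laid down by the mother, divides rapidly as a syncytium and then forms cells around the cortical nuclei while its own genome is switched on. Segmentation genes then subdivide the body, neural stem cells called neuroblasts leave the epithelium, and the rapid divisions cease. Toward the end of embryogenesis, cells express effector genes, the genes that carry out the work of a tissue, such as contraction, synaptic transmission, secretion of cuticle and digestion. In bulk RNA from whole embryos, more cells of a type and more RNA per cell cannot be told apart.

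Levels are given in CPM, estimated counts scaled to a common library size with TMM factors, and are compared between libraries and not between genes. Depth was 30897611, 14472809 and 31783930 estimated counts in replicates 1, 2 and 3 at 2–4 h, and 33732425 and 32574101 in replicates 1 and 2 at 14–14.5 h. A level of 3 counts, used as the floor, corresponded to 0.0925 to 0.189 CPM on that scale, a limit that covers counting error only. The windows also differed in a library property. mt:lrRNA, a ribosomal RNA made in mitochondria, took 11.1% to 14.8% of TPM at 2–4 h and 5.89% to 6.49% at 14–14.5 h, while it took 5.91% to 6.15% at 17–17.5 h and 10.02% to 12.2% at 14–17 h. The labels name no batch, and the methods name HiSeq and NextSeq instruments without saying which library ran on which. A batch of libraries and the window therefore cannot be told apart for any value below. Reads were assigned to the whole span of each gene, so genes that overlap share sequence, and 48.6% of the tested genes with coordinates overlap another gene.

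From 2–4 h to 14–14.5 h, most of the measured transcriptome changed. Of 11556 genes tested, 5391 (46.7%) were higher and 5007 (43.3%) lower at 14–14.5 h, and 1158 had no call (edgeR's quasi-likelihood test, two-sided, Benjamini-Hochberg adjusted p under 0.05). Either way, 90.0% of tested genes were called. The called changes were larger upward, with a median log2 fold change of 3.42 for the genes that were higher and −1.79 for those that were lower. More than 5-fold changes numbered 3400 upward (29.4%) and 1789 downward (15.5%). Over all tested genes the median log2 fold change was 0.11, and it was 0.25 with RLE factors, 0.07 with upper-quartile factors, 0.06 with the library total alone, 0.26 without mitochondrial genes and 0.32 in DESeq2, so small changes are to be read against that shift. In 48.7% of tested genes both 14–14.5 h libraries lay above all 2–4 h libraries, and in 44.9% both lay below.

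The reads moved with these genes. Genes more than 5-fold higher took 1.43%, 1.24% and 1.37% of the counts at 2–4 h and 41.0% and 41.3% at 14–14.5 h. Genes more than 5-fold lower took 20.1%, 20.0% and 20.5% at 2–4 h and 2.01% and 2.05% at 14–14.5 h. Both sets were chosen by this contrast, so these shares describe them and test nothing. Of the 3400 genes more than 5-fold higher, 1775 carry only a CG, CR or FBgn identifier, and of the 1789 more than 5-fold lower, 676 do. The share of such names over all tested genes was not counted, so these numbers do not show an excess. The study's 4 groups of effector genes hold 1526 genes, of which 1471 were tested, 1467 were higher and 1 was lower. Those groups were chosen with the same 2–4 h libraries, so their direction is not independent evidence.

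**Figure D1:**
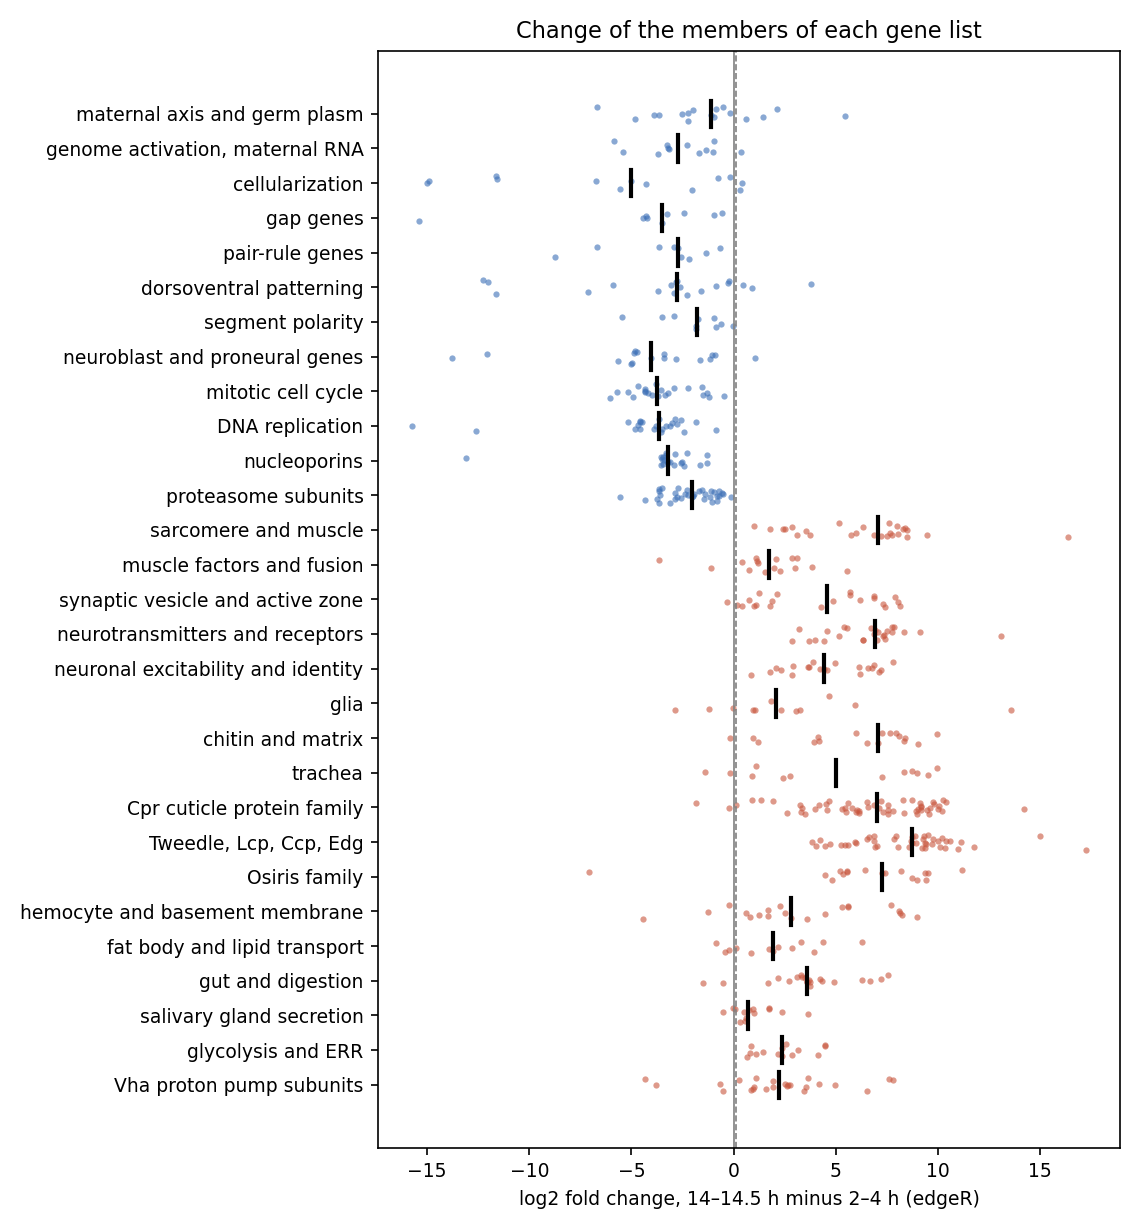
Log2 fold change from 2–4 h to 14–14.5 h (x axis, edgeR) of each tested member (points) of 29 gene lists (y axis), blue for lists of early functions and red for lists of late tissues and functions, with the list median as a black bar and the median of all tested genes, 0.11, as a dashed line. Every blue list drawn has its median below that line and every red list above it, from −5.04 for cellularization to 8.74 for the Tweedle, Lcp, Ccp and Edg cuticle proteins. The 29 lists are part of 41 and were chosen with earlier results of these data known, so this split tests nothing. Hox genes (median 0.82), cell death genes (0.13) and mitochondrial ribosomal proteins (0.14) are among the lists not drawn.

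The plot of list members shows the order of the account that follows, maternal and patterning genes first and tissue genes after. Each list is described by how many of its tested members were called and by their median, beside 46.7% higher, 43.3% lower and 0.11 over all genes. Members below the count filter were not tested, so the counts cover tested members only. A gene can pass that filter through 1 window alone. For families near 0 at 2–4 h, such as the cuticle and Osiris genes, this partly sets the direction of tested members. With no filter on low counts, 46 of 53 Tweedle, Lcp, Ccp and Edg genes rose and 0 fell. Likewise 57 of 68 Cpr genes rose and 1 fell, and 17 of 23 Osiris genes rose and 1 fell.

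Maternal RNAs of the axes and germ plasm were mostly lower at 14–14.5 h. In this list 12 of 17 tested genes fell, 4 rose, and the median log2 fold change was −1.09. Tl, the receptor of the dorsoventral pathway, was at 668, 598 and 683 CPM in the 3 replicates at 2–4 h and at 145 and 133 CPM in the 2 at 14–14.5 h. Its log2 fold change was −2.22 (SE 0.13, edgeR adjusted p = 4.2e-07). The cactus gene cact, which encodes the inhibitor of the Dorsal factor, went from 714, 566 and 669 CPM to 352 and 359 CPM (−0.87, SE 0.14, edgeR adjusted p = 0.00028). Both genes had groups that did not overlap, with the shallowest library, replicate 2, lowest at 2–4 h. The posterior determinant nanos fell more, from 29.9, 26.7 and 34.0 CPM to 0.308 and 0.279 CPM, and overlaps another gene. Not all germ plasm components fell. The germ plasm scaffold tud rose from 111, 101 and 106 CPM to 292 and 293 CPM (1.46, SE 0.10, edgeR adjusted p = 1e-06). The gene dl, for the Dorsal factor, was listed at only 3.72, 2.01 and 4.32 CPM at 2–4 h against 155 and 153 CPM at 14–14.5 h, with counts that were not whole in 4 of 5 libraries, so its values may hold divided reads and its direction is uncertain.

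Genes that switch on the zygotic genome or control maternal RNA fell in 11 of 12 cases, with a median of −2.70. me31B, an RNA helicase that represses maternal messages, stood at 1175, 1143 and 1202 CPM at 2–4 h and 133 and 131 CPM at 14–14.5 h. That is a log2 fold change of −3.15 (SE 0.13, edgeR adjusted p = 5e-08), and its 3 early libraries lay close together. tral, a component of the same RNA granules, was at 678, 483 and 669 CPM and then at 318 and 307 CPM (−0.96, SE 0.17, edgeR adjusted p = 0.00056). The pioneer factor zld, which opens chromatin for genome activation, fell from 693, 483 and 632 CPM to 248 and 221 CPM, and smg, which clears maternal RNA, from 735, 536 and 683 CPM to 133 and 139.9 CPM. zld was thus still detected far above the floor in both late libraries. Trl, the GAGA factor, was the exception at 10.2, 9.998 and 7.92 CPM and 11.7 and 12.3 CPM (0.36, SE 0.15, edgeR adjusted p = 0.048) and rests on counts that were not whole. The call was also lost with upper-quartile factors, with the library total alone, with no filter or a stricter filter on low counts and with all 11 libraries in the fit (edgeR adjusted p = 0.061 to 0.17). Without single libraries it was lost at 0.40 without 14–14.5 h replicate 1 (edgeR adjusted p = 0.14), 0.24 without 14–14.5 h replicate 2 (edgeR adjusted p = 0.37) and 0.24 without 2–4 h replicate 3 (edgeR adjusted p = 0.2).

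Cellularization genes, which build the furrows between the nuclei of the blastoderm, had a median of −5.04, with 10 of 13 tested genes lower and 2 higher. In the 8 members free of overlaps and divided counts the median was −3.15, with 6 lower and 1 higher. kuk, which elongates the nuclei, was at 2419.7, 2105 and 2404 CPM at 2–4 h and at 68.5 and 71.7 CPM at 14–14.5 h. slam, which organises the furrow membrane, was at 1302, 1272 and 1464 CPM and then at 12.95 and 11.97 CPM. The log2 fold changes were −5.04 for kuk (SE 0.16, edgeR adjusted p = 1.5e-08) and −6.75 for slam (SE 0.17, edgeR adjusted p = 8.4e-09). No early library came near a late one for either gene. halo, a cofactor of lipid droplet transport in the early embryo, fell from 184, 209 and 214 CPM to 0.0617 and 0.0620 CPM, which is at or under the floor. The general cytoskeletal members of the list behaved otherwise. The myosin light chain sqh rose slightly from 189, 160.3 and 187 CPM to 242 and 232 CPM (0.41, SE 0.11, edgeR adjusted p = 0.0078), a call lost at 0.38 without 14–14.5 h replicate 1 (edgeR adjusted p = 0.076), and the formin dia had no call at 94.6, 88.97 and 89.6 CPM and 80.1 and 82.1 CPM.

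Segmentation genes were lower throughout. All 9 tested gap genes fell (median −3.50), as did all 9 tested pair-rule genes (median −2.69) and 9 of 10 tested segment polarity genes (median −1.80), while 1, inv, had no call. The gap gene hb was at 218, 187 and 215 CPM at 2–4 h and at 12.1 and 9.40 CPM at 14–14.5 h (−4.26, SE 0.16, edgeR adjusted p = 3.9e-08). The pair-rule gene opa was at 333, 267 and 305 CPM and 26.1 and 22.3 CPM (−3.64, SE 0.15, edgeR adjusted p = 6.6e-08), and slp1, a pair-rule gene that also acts in segment polarity, at 150.3, 122 and 141 CPM and 17.7 and 19.1 CPM (−2.91, SE 0.13, edgeR adjusted p = 1.1e-07). For each of these genes both late libraries were far below the lowest early one. The pair-rule gene ftz fell most steeply among the pair-rule genes, from 139.9, 96.1 and 129 CPM to 0.339 and 0.217 CPM. The Hedgehog effector ci, a segment polarity gene, went from 727, 752 and 686 CPM to 202 and 197 CPM (−1.85, SE 0.12, edgeR adjusted p = 7.8e-07). The Wnt antagonist nkd went from 393, 332 and 355 CPM to 207 and 189 CPM (−0.86, SE 0.12, edgeR adjusted p = 0.00014). Both overlap another gene. The gap gene Kr was at 198, 187 and 196 CPM at 2–4 h and was listed at 0 in both late libraries, at least 2087-fold lower, but it overlaps CG9380 and its early counts were not whole, so this 0 is uncertain.

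Dorsoventral patterning genes fell in 15 of 19 cases and rose in 3, with a median of −2.77. twi, the bHLH factor that specifies mesoderm, was at 218, 159 and 210.4 CPM at 2–4 h and 15.6 and 14.1 CPM at 14–14.5 h (−3.72, SE 0.18, edgeR adjusted p = 1.3e-07). sog, the BMP antagonist of the ventral side, was at 307, 273 and 281 CPM and 99.97 and 90.0 CPM (−1.60, SE 0.12, edgeR adjusted p = 1.8e-06). The early libraries of each gene lay well above both late ones, and twi overlaps another gene. Dorsal genes were lower too, with zen falling from 48.8, 47.6 and 53.1 CPM to 0.308 and 0.403 CPM and tld, the protease that frees BMP, from 124, 125 and 122 CPM to 2.56 and 1.61 CPM. The FGF ligand pyr rose, from 40.8, 33.8 and 34.0 CPM to 68.4 and 66.2 CPM (0.89, SE 0.11, edgeR adjusted p = 7.5e-05).

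Hox genes, which give segments their identity, did not follow the other patterning genes. Of 8 tested Hox genes 6 rose, 1 fell, and the median was 0.82. In the 3 members free of overlaps and divided counts 1 rose and 1 fell, with a median of 0.09, so the direction of the list rests on members that may share reads. abd-A was at 88.6, 68.5 and 85.1 CPM at 2–4 h and 186 and 165 CPM at 14–14.5 h (1.12, SE 0.13, edgeR adjusted p = 4.7e-05). Antp was at 89.5, 85.4 and 86.0 CPM and 118 and 113 CPM (0.41, SE 0.09, edgeR adjusted p = 0.0029), a call lost at 0.38 without 14–14.5 h replicate 1 (edgeR adjusted p = 0.053). Dfd fell slightly, from 27.1, 24.5 and 27.6 CPM to 21.99 and 20.8 CPM (−0.31, SE 0.11, edgeR adjusted p = 0.023). That call was lost with DESeq2, without mitochondrial genes, and at −0.34 without 14–14.5 h replicate 1 (edgeR adjusted p = 0.09), −0.30 without 2–4 h replicate 1 (edgeR adjusted p = 0.061) and −0.28 without 2–4 h replicate 3 (edgeR adjusted p = 0.093). Ubx had no call at 59.5, 66.2 and 59.6 CPM and 70.6 and 60.8 CPM.

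**Figure D2:**
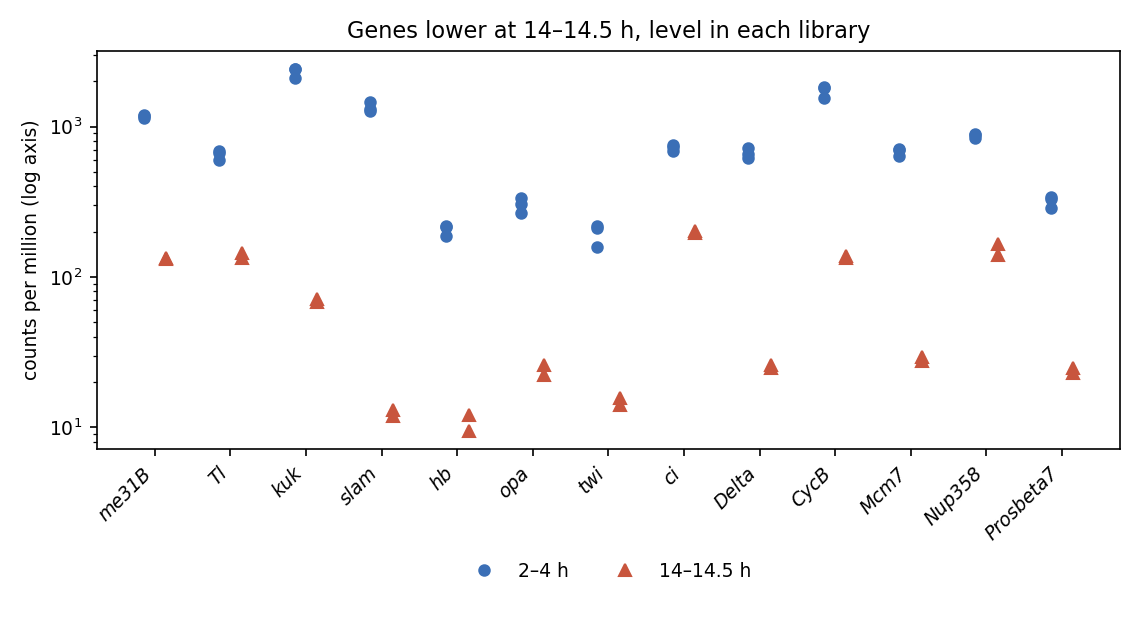
CPM (log y axis) of 13 genes lower at 14–14.5 h (x axis) in each library at 2–4 h (blue circles, 3 replicates) and 14–14.5 h (red triangles, 2 replicates). The groups overlap for none of the 13 genes, and the widest gap is that of slam, at 1302, 1272 and 1464 CPM early and 12.95 and 11.97 CPM late.

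Genes of neuroblasts and proneural clusters, where neural precursors are selected by Notch signalling, fell in 16 of 17 cases with a median of −4.04. The Notch ligand Delta was at 724, 617 and 658 CPM at 2–4 h and 25.9 and 24.7 CPM at 14–14.5 h (−4.72, SE 0.15, edgeR adjusted p = 1.6e-08). sca, a secreted regulator of precursor spacing, was at 677, 592 and 608 CPM and 22.7 and 20.0 CPM (−4.87, SE 0.15, edgeR adjusted p = 1.6e-08). For both genes every early library was far above the late ones. insc, an adaptor of asymmetric division, was the 1 member that rose, from 53.2, 46.7 and 55.6 CPM to 106 and 109 CPM (1.05, SE 0.11, edgeR adjusted p = 1.5e-05), and overlaps another gene.

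The cell cycle programme was lower without exception among tested members. All 22 mitotic genes fell (median −3.75), and so did all 23 DNA replication genes (median −3.66). The mitotic cyclin CycB was at 1837, 1551 and 1809 CPM at 2–4 h and 138 and 134 CPM at 14–14.5 h (−3.68, SE 0.15, edgeR adjusted p = 5.4e-08). CycB3 was at 1268, 985 and 1212 CPM and 89.8 and 74.2 CPM (−3.82, SE 0.18, edgeR adjusted p = 1.3e-07). Both were lowest in replicate 2 among the early libraries and still far above the late ones. Mcm7, a subunit of the replicative helicase, was at 711, 633 and 698 CPM and 29.3 and 27.4 CPM (−4.58, SE 0.14, edgeR adjusted p = 1.5e-08), and RnrS, the small subunit of ribonucleotide reductase, at 511, 461 and 503 CPM and 32.5 and 33.5 CPM (−3.90, SE 0.13, edgeR adjusted p = 2e-08). The smallest fall among these genes was that of rux, an inhibitor of mitotic cyclins, which went from 13.3, 11 and 12.6 CPM to 9.34 and 8.53 CPM. The call of rux depended on single libraries, with an edgeR adjusted p of up to 0.056 when 1 was left out. dap, the inhibitor of Cyclin E, went from 120.2, 110.1 and 133 CPM to 54.3 and 52.6 CPM. For stg, the Cdc25 phosphatase that times zygotic mitoses, the values were 269, 199.4 and 248 CPM and 85.9 and 75.8 CPM.

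Machinery of the nucleus and of protein turnover fell as well. All 21 tested nucleoporins, the subunits of the nuclear pore, were lower with a median of −3.20, and 33 of 35 tested proteasome subunits were lower with a median of −2.01. Nup358 was at 896, 837 and 882 CPM at 2–4 h and 166 and 139.7 CPM at 14–14.5 h (−2.51, SE 0.14, edgeR adjusted p = 2.8e-07). Nup153 was at 851, 661 and 809.6 CPM and 329 and 305 CPM (−1.29, SE 0.15, edgeR adjusted p = 3.6e-05). The nucleoporin levels of the windows did not overlap for any tested member. Prosbeta7, a core subunit of the proteasome, went from 328, 288 and 342 CPM to 22.9 and 24.9 CPM (−3.74, SE 0.14, edgeR adjusted p = 3.2e-08), and Rpn6, of its regulatory particle, from 299, 276 and 301 CPM to 70.2 and 74.6 CPM (−2.01, SE 0.11, edgeR adjusted p = 3.1e-07).

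Cytosolic ribosomal protein genes moved mostly down, with 58 of 90 tested members lower, 6 higher and a median of −0.61. The number higher was 15 with RLE factors, 16 without mitochondrial genes and 18 in DESeq2, with 58 to 59 lower. RpS3A was at 3886, 3357 and 3835 CPM at 2–4 h and 545 and 566 CPM at 14–14.5 h (−2.73, SE 0.14, edgeR adjusted p = 1.9e-07). RpL36 was higher instead, at 956, 824 and 903 CPM and then 1957 and 2086 CPM (1.18, SE 0.12, edgeR adjusted p = 1.8e-05). In the 14–17 h libraries set against the same 2–4 h libraries, RpL36 had a log2 fold change of only 0.09. From 14–14.5 h to 17–17.5 h it had −0.002 (edgeR adjusted p = 0.98). The paralogs RpS5a and RpS5b moved in opposite directions, RpS5b from 309, 237 and 317 CPM to 13.4 and 12.3 CPM and RpS5a from 717, 563 and 705 CPM to 955 and 1169.7 CPM. Near-identical stretches of such paralogs could exchange reads. The summed level of the list was 111560.0, 88924 and 108824 CPM at 2–4 h and 66409 and 69974 CPM at 14–14.5 h.

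Muscle genes showed some of the steepest rises. All 26 tested sarcomere genes were higher at 14–14.5 h, 24 of them more than 5-fold, with a median log2 fold change of 7.06. Act57B, a muscle actin, was at 149, 52.9 and 111 CPM at 2–4 h and 15651 and 15659 CPM at 14–14.5 h (7.23, SE 0.42, edgeR adjusted p = 4e-07). bt, the projectin gene of the sarcomere, was at 31.6, 13.1 and 11.2 CPM and 6863 and 6676 CPM (8.50, SE 0.48, edgeR adjusted p = 3.7e-07). The late libraries agreed closely, while replicate 1 at 2–4 h held the highest early level of both genes. Mhc, the single muscle myosin heavy chain gene, had the same pattern, with 52.3, 12.5 and 16.2 CPM at 2–4 h and 5456 and 5673 CPM at 14–14.5 h. Actins of other muscles were low, and near-identical actin genes could exchange reads. Act88F, the actin of adult flight muscle, was at 0.304, 0.189 and 0.315 CPM and 0.678 and 0.465 CPM, and Act79B, another actin best known from the adult, at 0.405, 0.566 and 0.568 CPM and 2.96 and 2.88 CPM. Mlp84B, a LIM protein of the Z-disc, was listed at 0 early and at 379 and 379 CPM late, at least 2956-fold higher, but overlaps Alh and shares reads.

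Regulators of muscle were mostly higher too. Of 16 tested muscle transcription factors and fusion genes, 14 rose and 2 fell, with a median of 1.76. how, an RNA-binding protein of muscle and tendon, was at 323, 285 and 308 CPM at 2–4 h and 719 and 657 CPM at 14–14.5 h (1.17, SE 0.11, edgeR adjusted p = 1.3e-05). Mef2, which activates muscle structural genes, was at 111, 90.9 and 110.2 CPM and 229 and 215 CPM (1.09, SE 0.12, edgeR adjusted p = 2.6e-05). The groups did not overlap for either. mbc, a Rac activator needed for myoblast fusion, fell from 384, 326 and 365 CPM to 163 and 165 CPM (−1.12, SE 0.12, edgeR adjusted p = 2.1e-05), and the heart and early mesoderm factor tin from 39.6, 32.7 and 38.6 CPM to 3.45 and 2.51 CPM. sr, the tendon cell factor, rose from 3.41, 1.57 and 1.45 CPM to 114 and 95.8 CPM.

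Neuronal effector genes rose across lists. Of 22 tested synaptic vesicle and active zone genes 20 rose and 1 fell (median 4.58, and 2.99 in the 4 members free of overlaps and divided counts), and all 26 tested genes of neurotransmitter synthesis, transport and reception rose, each more than 5-fold (median 6.92, or 6.81 with 1 gene at 0 set to its bound). All 21 tested genes of neuronal excitability and identity rose (median 4.42). cpx, complexin of the fusion machinery, was at 7.23, 3.33 and 5.61 CPM at 2–4 h and 674 and 641 CPM at 14–14.5 h (6.89, SE 0.26, edgeR adjusted p = 3.6e-08). The priming factor unc-13 was at 204, 209 and 196 CPM and 788 and 723 CPM (1.90, SE 0.11, edgeR adjusted p = 4e-07). Both overlap other genes, so part of their reads may have been divided. brp, the scaffold of the active zone, went from 3.51, 2.70 and 3.31 CPM to 581 and 520.0 CPM. The 1 synaptic member that fell, the chaperone gene Csp, changed little, from 322, 311 and 313 CPM to 264 and 249 CPM (−0.30, SE 0.10, edgeR adjusted p = 0.023). The call of Csp was lost with RLE factors, without mitochondrial genes, and at −0.34 without 14–14.5 h replicate 1 (edgeR adjusted p = 0.087) and −0.31 without 2–4 h replicate 3 (edgeR adjusted p = 0.088).

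Genes of several transmitter systems rose. Vmat, the vesicular monoamine transporter, was at 1.99, 1.70 and 1.67 CPM at 2–4 h and 221 and 204 CPM at 14–14.5 h (6.88, SE 0.13, edgeR adjusted p = 7.3e-09). Rdl, a GABA receptor, was at 3.45, 1.70 and 2.40 CPM and 438 and 403 CPM (7.33, SE 0.22, edgeR adjusted p = 1.3e-08). Early levels of both were a few CPM in every library. VGlut, the vesicular glutamate transporter, rose from 0.642, 0.189 and 0.568 CPM to 119 and 108 CPM, Gad1, which makes GABA, from 0.912, 0.377 and 0.599 CPM to 86.9 and 87.0 CPM, and ChAT, which makes acetylcholine, from 2.03, 1.01 and 1.32 CPM to 54.4 and 54.1 CPM. The muscle side of the synapse rose too. GluRIIC, an essential subunit of the muscle glutamate receptor, went from 0.169, 0.252 and 0.189 CPM to 46.2 and 45.5 CPM. Tdc2, which makes octopamine precursors, differed between the late libraries, with 0.740 and 4.19 CPM against 0 in all early ones, at least 19.2-fold higher. Tdc2, Vmat, VGlut, Gad1 and ChAT overlap another gene.

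Among genes of neuronal excitability and identity, fne, a neuronal RNA-binding protein related to elav, was at 12.03, 6.85 and 10.3 CPM at 2–4 h and 764 and 707 CPM at 14–14.5 h (6.22, SE 0.22, edgeR adjusted p = 2.6e-08). Fas3, an adhesion protein of axons and epithelia, was at 54.0, 34.3 and 51.9 CPM and 706 and 698 CPM (3.90, SE 0.19, edgeR adjusted p = 1.7e-07). para, the voltage-gated sodium channel, went from 4.22, 3.58 and 3.38 CPM to 548 and 506 CPM, and the potassium channel gene Shaw from 1.08, 0.880 and 0.757 CPM to 142 and 129 CPM. In contrast elav itself, the neuronal marker, was already at 187, 172 and 183 CPM early and reached 348 and 307 CPM, and overlaps another gene. Every early library lay below both late ones for each of these genes.

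Glial genes were mostly higher. Of 12 tested, 9 rose and 2 fell, with a median of 2.09. In the 3 members free of overlaps and divided counts 3 rose and 0 fell, with a median of 3.07. The falls thus rest on members that may share reads, and loco and Nrx-IV overlap other genes. gcm, the transient switch of glial fate, fell from 29.7, 23.5 and 27.8 CPM to 3.39 and 4.00 CPM. loco, another gene of the list, fell from 140.1, 111 and 131 CPM to 56.3 and 53.7 CPM (−1.21, SE 0.13, edgeR adjusted p = 2.2e-05). repo, the lasting glial factor, rose from 4.46, 3.21 and 4.89 CPM to 22.1 and 20.8 CPM, and Eaat1, the glial glutamate transporter, from 0.946, 1.07 and 1.10 CPM to 63.7 and 64.9 CPM. nrv2, a sodium pump subunit of glia and septate junctions, was at 98.0, 91.0 and 92.2 CPM and 331 and 347 CPM (1.86, SE 0.10, edgeR adjusted p = 2.6e-07), and Nrx-IV, an adhesion protein of the same junctions, at 115.0, 100.3 and 109.7 CPM and 229.6 and 222 CPM (1.06, SE 0.10, edgeR adjusted p = 1.2e-05). In this list gcm and loco thus moved opposite to repo, Eaat1, nrv2 and Nrx-IV. Whether the RNA of gcm and loco at 2–4 h came from glia was not tested.

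**Figure D3:**
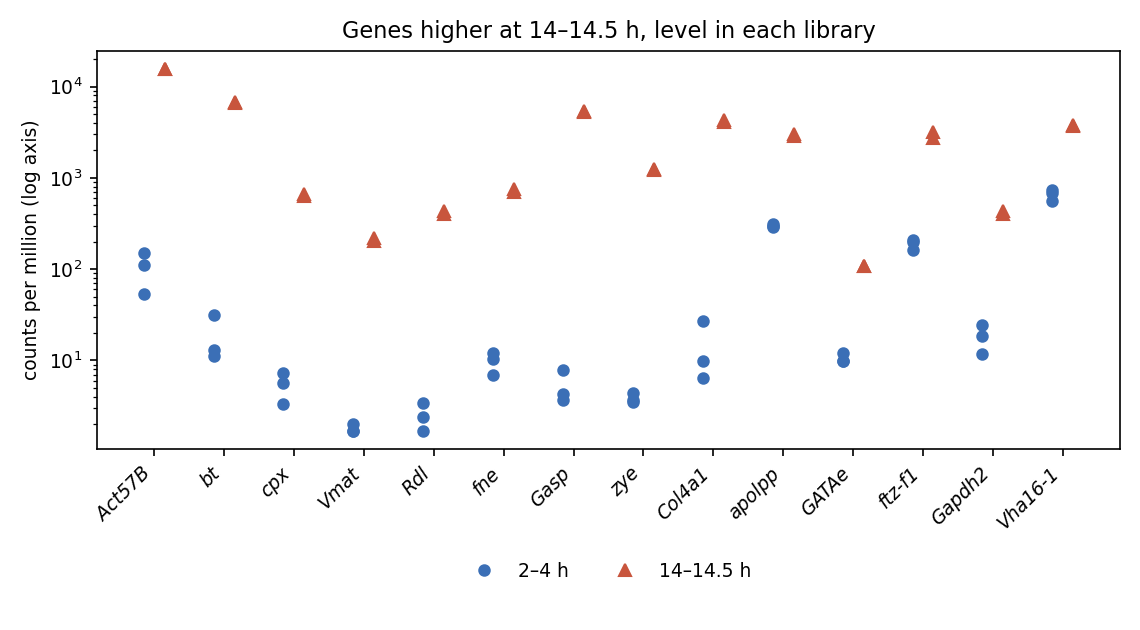
CPM (log y axis) of 14 genes higher at 14–14.5 h (x axis) in each library at 2–4 h (blue circles, 3 replicates) and 14–14.5 h (red triangles, 2 replicates). The groups overlap for none of the 14 genes, the late replicates nearly coincide, and the early spread is widest for Act57B, bt and Col4a1.

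Genes that make the cuticle were among the most raised. Of 17 tested genes of chitin synthesis and matrix assembly, 16 rose and 0 fell (median 7.07). Of 56 tested genes of the 70 in the Cpr family of chitin-binding cuticle proteins, 53 rose and 1 fell (median 7.01, or 6.14 with 5 genes at 0 set to their bounds). All 45 tested of 55 Tweedle, Lcp, Ccp and Edg cuticle protein genes rose more than 5-fold (median 8.74, or 8.69 with 6 genes at their bounds). Gasp, a chitin-binding protein of tracheal and epidermal matrix, on chromosome 3R from 6088799 to 6100887 of dm6, was at 7.77, 4.28 and 3.69 CPM at 2–4 h and 5362 and 5232 CPM at 14–14.5 h (9.97, SE 0.35, edgeR adjusted p = 2.6e-08). The related obst-A was at 4.32, 2.14 and 1.64 CPM and 1426 and 1416 CPM (9.01, SE 0.36, edgeR adjusted p = 5.3e-08). For both, early levels were a few CPM in each library and the late libraries nearly coincided. kkv, the chitin synthase, rose less, from 10.4, 8.74 and 9.46 CPM to 167 and 177 CPM. Idgf6, a secreted chitinase-like protein, had no call at 521, 452 and 510.3 CPM and 424 and 453 CPM.

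Single cuticle protein genes rose from a few CPM or less. Cpr65Ea was at 4.09, 2.77 and 0 CPM at 2–4 h and 2292 and 2273 CPM at 14–14.5 h (10.01, SE 0.92, edgeR adjusted p = 8.4e-06). Cpr51A was at 2.33, 1.95 and 0.0315 CPM and 1162 and 1177 CPM (9.75, SE 0.70, edgeR adjusted p = 1.6e-06). TwdlF was at 5.41, 0.126 and 0.0631 CPM and 2774 and 2674 CPM (10.39, SE 1.12, edgeR adjusted p = 2.5e-05). The early level sat mainly in replicate 1, or in replicates 1 and 2, and was 0 or nearly 0 in replicate 3. TwdlM was at 10.7, 6.35 and 0 CPM and 2634 and 2714 CPM (8.89, SE 1.13, edgeR adjusted p = 7.5e-05), with counts that were not whole. Cpr60D was the 1 Cpr gene that fell, from 2.70, 2.45 and 3.38 CPM to 0.833 and 0.744 CPM (−1.86, SE 0.28, edgeR adjusted p = 0.00023). Genes of the apical matrix with zona pellucida domains rose in 7 of 10 tested cases and fell in 1 (median 2.35). In the 5 members free of overlaps and divided counts 2 rose and 1 fell, with a median of 0.37. zye went from 4.39, 3.52 and 3.66 CPM to 1259.7 and 1214 CPM (8.31, SE 0.16, edgeR adjusted p = 7.3e-09) and dpy, a giant matrix protein, from 55.5, 42.3 and 53.8 CPM to 716 and 653 CPM (3.76, SE 0.15, edgeR adjusted p = 4.3e-08), while neo fell from 13.2, 6.98 and 13.3 CPM to 2.62 and 1.67 CPM (−2.40, SE 0.34, edgeR adjusted p = 0.00014).

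The Osiris family, insect genes expressed in cuticle-secreting epithelia and mostly clustered on chromosome 3R, rose in 16 of 17 tested members of 23 and fell in 1. Its median was 7.30, or 5.55 with 3 genes at 0 set to their bounds. Osi15 (3R, 6301804 to 6303653) was at 2.87, 0.440 and 0 CPM at 2–4 h and 2851 and 2715 CPM at 14–14.5 h (11.21, SE 0.92, edgeR adjusted p = 3.9e-06). Osi20 (3R, 6340095 to 6341424) was at 2.47, 0.0629 and 0.0315 CPM and 693 and 717 CPM (9.52, SE 0.76, edgeR adjusted p = 3.3e-06). Osi6 was at 21.3, 0.440 and 0.0315 CPM at 2–4 h and 271 and 309 CPM at 14–14.5 h, and Osi7 at 17.1, 0.252 and 0.0946 CPM and 275 and 310.4 CPM. Replicate 1 held nearly all early signal of the family, 53.4 CPM in sum against 2.96 and 1.42 CPM in replicates 2 and 3. Without replicate 1 the family's median log2 fold change was 10.69. Osi21, which overlaps another gene and lies on chromosome 2L, was the member that fell, from 0.473, 0.755 and 0.599 CPM to 0 in both late libraries, at least 6.56-fold lower.

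Late genes were thus unevenly present among the 2–4 h libraries, but part of this order was not particular to them. The mitotic list summed to 8373, 7108 and 8129 CPM in replicates 1, 2 and 3, also lowest in replicate 2. Mitochondrial genome transcripts went the other way, at 82804, 91483 and 72558 CPM. The count of highest libraries given next was not made over all tested genes. Of 3110 genes that were more than 5-fold higher at 14–14.5 h and had counts at 2–4 h, the highest early level was in replicate 1 for 1826, in replicate 2 for 421 and in replicate 3 for 863. The summed sarcomere level was 1968, 1407 and 1689 CPM in replicates 1, 2 and 3, that of the Cpr family 41.8, 21.7 and 23.2 CPM, and that of the Tweedle, Lcp, Ccp and Edg genes 82.4, 26.9 and 14.9 CPM. At 14–14.5 h these sums were 58769 and 59030.1 CPM, 8189 and 8208 CPM, and 19853 and 19707 CPM. Whether older embryos in a collection contributed to these levels was not tested. Without replicate 1 there were 5364 genes higher and 4822 lower.

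**Figure D4:**
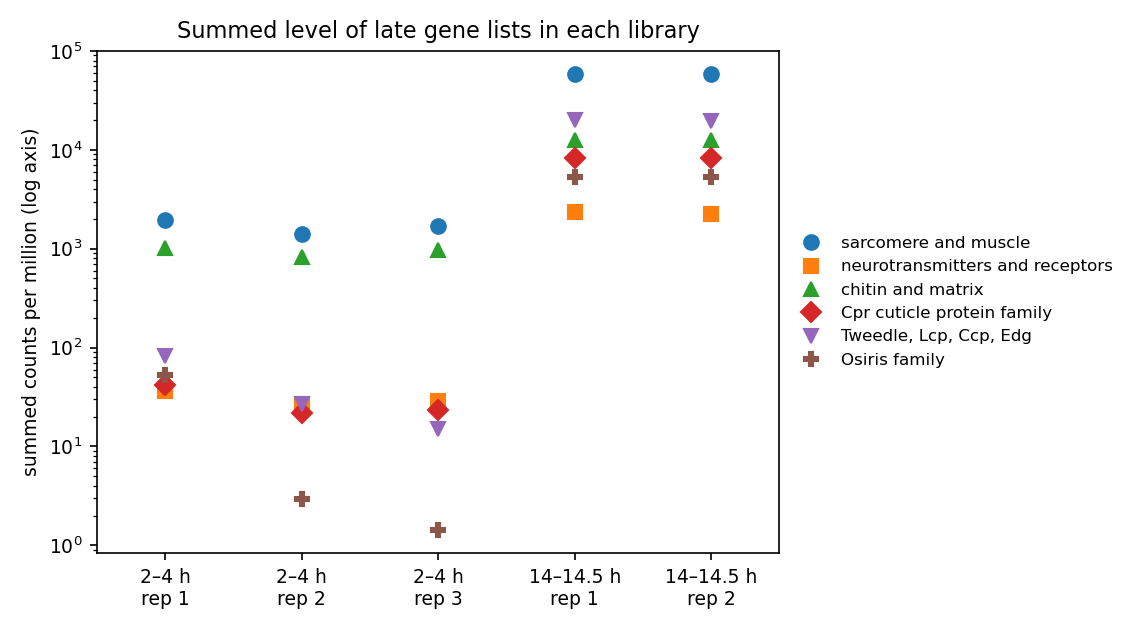
Summed CPM (log y axis) of 6 late gene lists (symbols) in each of the 5 libraries (x axis). All 6 sums are higher in both 14–14.5 h libraries than in any 2–4 h library, and the Osiris family is at 53.4 CPM in replicate 1 at 2–4 h but at 2.96 and 1.42 CPM in replicates 2 and 3.

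Tracheal genes rose in 10 of 12 tested cases and fell in 1 (median 5.03, and 8.76 in the 7 members free of overlaps and divided counts). verm, a chitin deacetylase that limits tube length, was at 15.2, 2.52 and 7.85 CPM at 2–4 h and 1365 and 1373 CPM at 14–14.5 h (7.28, SE 0.57, edgeR adjusted p = 2.9e-06). Its partner serp was at 6.32, 1.89 and 1.64 CPM and 1102 and 1084 CPM. Replicate 1 was again the highest early library for both. btl, the FGF receptor that guides tracheal branching, fell from 35.4, 30.9 and 34.6 CPM to 12.9 and 13.1 CPM (−1.38, SE 0.11, edgeR adjusted p = 4e-06), and trh, the factor that specifies trachea, rose from 32.9, 31.7 and 34.1 CPM to 69.9 and 69.1 CPM.

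Genes of cuticle tanning and wound response rose in 9 of 12 tested cases and fell in 1 (median 4.06). The pigment gene y was at 1.52, 0.0629 and 1.29 CPM at 2–4 h and 66.4 and 76.0 CPM at 14–14.5 h (6.01, SE 0.36, edgeR adjusted p = 5e-07), and overlaps another gene. ple, the tyrosine hydroxylase that starts the tanning pathway, rose from 0.980, 0.189 and 0.158 CPM to 38.1 and 40.3 CPM. The POU factor vvl was at 48.1, 34.1 and 49.4 CPM and 263 and 231 CPM (2.49, SE 0.16, edgeR adjusted p = 9.3e-07). grh, an epidermal barrier factor with a maternal supply, fell from 229, 203 and 216 CPM to 142 and 141 CPM (−0.61, SE 0.10, edgeR adjusted p = 0.00054). Septate junctions, which seal epithelia, changed moderately, with 14 of 18 tested genes higher, 3 lower and a median of 0.96. Atpalpha, the sodium pump, rose from 266, 213 and 256 CPM to 2735 and 2561 CPM (3.43, SE 0.14, edgeR adjusted p = 5.7e-08) and Nrg, neuroglian, from 225, 182 and 215 CPM to 1029.7 and 1002 CPM (2.29, SE 0.13, edgeR adjusted p = 3.3e-07). Lac fell, from 967, 858 and 943 CPM to 273 and 249 CPM (−1.82, SE 0.13, edgeR adjusted p = 1.4e-06).

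Hemocytes, the blood cells that secrete much of the basement membrane, were represented by 21 tested genes, of which 18 rose and 2 fell (median 2.80). Col4a1, a collagen IV chain, was at 27.1, 6.35 and 9.90 CPM at 2–4 h and 4108 and 4279 CPM at 14–14.5 h (8.16, SE 0.59, edgeR adjusted p = 1.8e-06). vkg, the other collagen IV chain and its neighbour on 2L, was at 18.4, 5.03 and 7.38 CPM and 2852 and 2944 CPM (8.11, SE 0.52, edgeR adjusted p = 8e-07). The chains had the same order of libraries, with replicate 1 highest and replicate 2 lowest at 2–4 h. The laminin gene LanA rose from 343, 286 and 333 CPM to 1582 and 1570.1 CPM. srp, the GATA factor of hemocytes and fat body, fell from 226, 178 and 209 CPM to 91.9 and 81.2 CPM (−1.24, SE 0.13, edgeR adjusted p = 2.6e-05). PPO1, a prophenoloxidase of crystal cells, rose from 5.54, 3.33 and 5.11 CPM to 192 and 189 CPM, and Hml, a plasmatocyte marker, was still low at 0.541, 0.252 and 0.599 CPM and 3.27 and 3.66 CPM.

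Fat body genes rose in 9 of 13 tested cases and fell in 2 (median 1.94). apolpp, the lipoprotein of the hemolymph, was at 301, 291 and 309 CPM at 2–4 h and 3043 and 2864 CPM at 14–14.5 h (3.30, SE 0.12, edgeR adjusted p = 2.7e-08). Adh, the alcohol dehydrogenase of fat body and gut, was at 4.80, 2.45 and 6.50 CPM and 373 and 391 CPM (6.32, SE 0.28, edgeR adjusted p = 9.1e-08). Both overlap another gene. Larval storage protein genes were low, with Lsp1alpha and Lsp1beta at or under the floor in all 5 libraries and Lsp2 at 0.432 and 0.558 CPM at 14–14.5 h. The ferritin chain Fer1HCH fell slightly, from 512, 422 and 501 CPM to 345 and 376 CPM (−0.41, SE 0.13, edgeR adjusted p = 0.015), a call lost at −0.35 without 14–14.5 h replicate 1 (edgeR adjusted p = 0.13) and −0.38 without 2–4 h replicate 3 (edgeR adjusted p = 0.065).

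Gut genes rose in 19 of 21 tested cases of 27 and fell in 2 (median 3.61), but several digestive enzymes were still at a few CPM or less. GATAe, the endodermal GATA factor, was at 12.2, 9.81 and 9.97 CPM at 2–4 h and 109 and 109 CPM at 14–14.5 h (3.35, SE 0.12, edgeR adjusted p = 2.9e-08). Mal-A3, a maltase, was at 0.980, 0.0629 and 0.252 CPM and 88.0 and 101 CPM (7.59, SE 0.36, edgeR adjusted p = 1.3e-07). Both late libraries were far above the early ones. Of the trypsins, alphaTry reached 3.95 and 4.90 CPM, betaTry 0.894 and 1.02 CPM and Amy-p, the amylase, 0.524 and 0.434 CPM, and reads may be shared among their paralogs. LManII, a lysosomal mannosidase, fell from 299.8, 264 and 283 CPM to 99.8 and 102 CPM (−1.48, SE 0.11, edgeR adjusted p = 2.2e-06).

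Salivary gland and secretory pathway genes rose in 11 of 14 tested cases and fell in 1, with a low median of 0.69. Sar1, the GTPase of vesicles leaving the endoplasmic reticulum, was at 80.8, 69.1 and 82.5 CPM at 2–4 h and 406 and 388 CPM at 14–14.5 h (2.36, SE 0.11, edgeR adjusted p = 1.5e-07). Sec61alpha, of the translocation channel, was at 334, 292 and 324 CPM and 392 and 402 CPM (0.33, SE 0.11, edgeR adjusted p = 0.021). The call of Sec61alpha was lost at 0.35 without 14–14.5 h replicate 1 (edgeR adjusted p = 0.089) and 0.34 without 2–4 h replicate 3 (edgeR adjusted p = 0.076). fkh, a factor of salivary gland and gut, fell from 156, 131 and 150.1 CPM to 108 and 97.3 CPM (−0.51, SE 0.12, edgeR adjusted p = 0.003).

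The ecdysteroid pathway changed in both directions. Of 25 tested genes 15 rose and 10 fell (median 1.63). In the 10 members free of overlaps and divided counts 5 rose and 5 fell, with a median of 1.03. Of the biosynthetic Halloween genes tested, spo, phtm, dib, sad, shd and sro fell and spok rose. dib went from 66.1, 60.2 and 63.0 CPM to 0.308 and 0.372 CPM, phtm from 50.6, 44.0 and 48.7 CPM to 5.92 and 6.57 CPM, and spo, which overlaps another gene, from 166, 172 and 162 CPM to 0.216 and 0.0930 CPM. spok, a paralog of spo, moved the other way, from 0.878, 0.629 and 0.568 CPM to 14.9 and 12.03 CPM. The degrading enzyme Cyp18a1 rose from 3.11, 2.33 and 1.67 CPM to 243 and 248 CPM. Several response genes rose. The nuclear receptor ftz-f1, which has a maternal and a later zygotic transcript, was at 211, 164 and 196 CPM at 2–4 h and 3156 and 2723 CPM at 14–14.5 h (3.95, SE 0.15, edgeR adjusted p = 4.5e-08). Hr3, another receptor of the cascade, rose from 0.811, 0.943 and 0.883 CPM to 109.7 and 97.5 CPM and the Ets factor Eip74EF from 1.28, 1.01 and 1.01 CPM to 187 and 180.4 CPM. EcR, the ecdysone receptor, changed slightly from 147, 119 and 143 CPM to 192 and 178 CPM (0.44, SE 0.12, edgeR adjusted p = 0.0077), a call lost at 0.39 without 14–14.5 h replicate 1 (edgeR adjusted p = 0.084). ImpL2, an insulin-binding protein, fell from 248, 195 and 218 CPM to 145 and 142 CPM (−0.62, SE 0.13, edgeR adjusted p = 0.0015). ftz-f1, Hr3, EcR and dib overlap another gene.

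Most genes of energy metabolism rose. All 14 tested genes of glycolysis and its activator ERR were higher (median 2.37), as were 48 of 69 tested subunits of the respiratory chain and ATP synthase, with 12 lower (median 0.63). Gapdh2 was at 18.4, 11.8 and 24.7 CPM at 2–4 h and 405 and 429.7 CPM at 14–14.5 h (4.49, SE 0.26, edgeR adjusted p = 3.8e-07). Ald1, the aldolase, was at 244, 212 and 246 CPM and 1366 and 1404 CPM (2.56, SE 0.12, edgeR adjusted p = 1.3e-07). Replicate 2 was the lowest early library for both genes. ATPsynC, a subunit of the rotor of the ATP synthase, went from 455, 371 and 447 CPM to 1624 and 1651 CPM (1.95, SE 0.13, edgeR adjusted p = 1.1e-06) and the catalytic ATPsynbeta from 665, 645 and 679 CPM to 1078 and 1139 CPM (0.74, SE 0.11, edgeR adjusted p = 0.00021). COX4 fell slightly, from 214, 180.0 and 218 CPM to 159 and 167 CPM (−0.32, SE 0.12, edgeR adjusted p = 0.03), a call lost at −0.29 without 14–14.5 h replicate 1 (edgeR adjusted p = 0.19), −0.29 without 2–4 h replicate 1 (edgeR adjusted p = 0.056) and −0.28 without 2–4 h replicate 3 (edgeR adjusted p = 0.12). Mitochondrial ribosomal proteins were divided, with 33 of 72 tested members higher, 23 lower and a median of 0.14, and 0.08 in the 29 members free of overlaps and divided counts.

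Subunits of the vacuolar proton pump rose in 19 of 24 tested cases and fell in 4 (median 2.22). Vha16-1, of the membrane ring, was at 741, 553 and 687 CPM at 2–4 h and 3839.7 and 3666 CPM at 14–14.5 h (2.51, SE 0.15, edgeR adjusted p = 5.1e-07). Vha26 was at 405, 349 and 385 CPM and 729.7 and 749 CPM (0.96, SE 0.12, edgeR adjusted p = 5.2e-05). The paralogs of the large membrane subunit diverged, Vha100-1 falling from 178, 135 and 171 CPM to 118 and 111 CPM (−0.49, SE 0.14, edgeR adjusted p = 0.0077) and Vha100-2 rising from 22.7, 15.3 and 25.5 CPM to 229 and 236 CPM.

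Transcripts of the mitochondrial genome moved unevenly, with 9 of 14 tested genes lower, 2 higher and a median of −1.02. mt:lrRNA was at 63389, 67358 and 53855 CPM at 2–4 h and 31501 and 27785 CPM at 14–14.5 h (−1.05, SE 0.13, edgeR adjusted p = 6.1e-05). mt:ATPase6 was at 1393, 1941 and 1289 CPM and 985 and 843 CPM (−0.75, SE 0.19, edgeR adjusted p = 0.0054), a call lost in DESeq2 (−0.64, adjusted p = 0.072) and at −0.76 without 14–14.5 h replicate 2 (edgeR adjusted p = 0.1). mt:CoIII, its neighbour, rose from 4926, 5842 and 4716 CPM to 12194 and 10296 CPM (1.12, SE 0.14, edgeR adjusted p = 6.3e-05). The mt:lrRNA share is the library property given above, and in the 14–17 h libraries set against the same 2–4 h libraries the median was −0.19.

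Cell death genes split evenly, with 5 of 10 tested members higher and 5 lower (median 0.13, and −1.69 in the 5 members free of overlaps and divided counts). The inhibitor of apoptosis Diap1 rose from 167, 146 and 164 CPM to 275 and 287 CPM (0.82, SE 0.11, edgeR adjusted p = 8.7e-05) and the death inducer rpr from 20.1, 19.4 and 19.9 CPM to 33.7 and 31.7 CPM (0.72, SE 0.10, edgeR adjusted p = 0.00011). The effector caspase Dcp-1 fell from 191, 164 and 192 CPM to 32.9 and 37.4 CPM (−2.38, SE 0.13, edgeR adjusted p = 2.7e-07). Another death inducer, hid, fell from 65.1, 65.1 and 66.7 CPM to 21.1 and 19.7 CPM. Diap1 and Dcp-1 overlap another gene.

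RNA from other sources was low. Of 15 eggshell and yolk genes of the mother, 5 were tested, and the sum over the list was 12.1, 7.23 and 8.61 CPM at 2–4 h and 3.98 and 3.63 CPM at 14–14.5 h. The yolk protein gene Yp2 had 3.18, 0 and 0.915 CPM at 2–4 h. The eggshell gene dec was at 1.76, 5.596 and 4.35 CPM and 0.956 and 0.372 CPM (−2.52, SE 0.57, edgeR adjusted p = 0.0029), and Cp18, a chorion gene, at 0.777, 0.566 and 0.568 CPM and 0.154 and 0.310 CPM (−1.46, SE 0.44, edgeR adjusted p = 0.012). The call of dec was lost at −2.12 without 14–14.5 h replicate 2 (edgeR adjusted p = 0.072), and that of Cp18 at −1.04 without 14–14.5 h replicate 1 (edgeR adjusted p = 0.14). Of 10 genes of the adult head, testis, accessory gland and fat body 2 were tested. The call of Act88F was lost in DESeq2, with no filter on low counts, with all 11 libraries in the fit, and at 0.73 without 14–14.5 h replicate 1 (edgeR adjusted p = 0.29), 1.20 without 14–14.5 h replicate 2 (edgeR adjusted p = 0.059), 1.07 without 2–4 h replicate 1 (edgeR adjusted p = 0.062), 0.85 without 2–4 h replicate 2 (edgeR adjusted p = 0.073) and 1.12 without 2–4 h replicate 3 (edgeR adjusted p = 0.051). The other was the photoreceptor channel gene trp, which was at 0 early and 0.802 and 0.403 CPM late, at least 4.70-fold higher. The sum of that list stayed between 0.503 and 1.85 CPM in the 5 libraries.

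The largest fitted changes in the whole table were between 0 and a high level. The 10 most raised genes, CG2962, Ank2, TwdlY, LamC, fok, CG46320, CG11147, Mlp84B, CG9083 and FBgn0025683, were all listed at 0 in the 3 early libraries. Of the 10 most lowered, pre-lola-G, term, Cdc6, Elba1, SNCF, Kr, Obp73a, CG14915, bnk and Z600, all were listed at 0 in both late libraries. CG2962 reached 7909 and 6747 CPM at 14–14.5 h, at least 57159-fold higher, and pre-lola-G was at 1040.5, 980.2 and 1029 CPM at 2–4 h, at least 10959-fold lower later. Such zeros are uncertain. Among 188 genes with coordinates that were at 0 at 2–4 h and at least 1 CPM in both late libraries, 73.9% overlap another gene and 75.5% have a count that is not whole, against 48.6% and 36.6% of all tested genes with coordinates. Among 118 genes at 0 at 14–14.5 h and at least 1 CPM early, the shares were 77.1% and 88.1%. Ank2, for example, overlaps CG44195 and CG32373, and pre-lola-G overlaps lola, so a 0 may mean that shared reads went to the other gene.

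Genes that overlap no other and had whole counts, picked after their values were seen, were called in both directions too. Of 4964 such genes, 2434 (49.0%) were higher and 2072 (41.7%) lower, with a median of 0.30. CG13048 (3L, 16282809 to 16283921) rose most, from 0.101, 0.126 and 0 CPM to 498 and 459 CPM (12.75, SE 0.29, edgeR adjusted p = 7.3e-09). CG15022 went from 3.58, 1.95 and 0.379 CPM to 6907 and 6678 CPM and the mucin gene Muc91C from 0.811, 0.126 and 0 CPM to 1171 and 1024 CPM. CG6885 was at 58.9, 64.8 and 61.4 CPM at 2–4 h and at 0 in both late libraries, at least 665-fold lower. Bro, a partner of the Runt factor, was at 40.2, 39.2 and 44.3 CPM early and at 0 late, at least 444-fold lower. Elba3, part of an insulator-binding complex of the early embryo, fell from 146, 152 and 166 CPM to 0.0925 and 0.186 CPM, and bard from 392, 427 and 432 CPM to 0.123 and 0.155 CPM. Both late libraries of these lowered genes were at 0.186 CPM or less.

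Between 14–14.5 h and 17–17.5 h, the next narrow window, 3607 of 11267 tested genes (32.0%) were higher and 3554 (31.5%) lower (edgeR's quasi-likelihood test, Benjamini-Hochberg adjusted p under 0.05, n = 2 and 2). The split between the directions depended on scaling, with 3295 higher and 4065 lower with upper-quartile factors and 2975 and 4409 with the library total alone. Lists with a positive median by 14–14.5 h then took different courses, counted over all their tested members, whether or not these had risen before. Osiris genes fell in 14 of 16 tested cases and rose in 0 (median −4.34), tracheal genes fell in 11 of 12 and rose in 1 (median −1.97), chitin and matrix genes fell in 14 of 17 and rose in 2 (median −0.93), and salivary gland genes fell in 13 of 14 and rose in 0 (median −0.74). Gasp dropped with a log2 fold change of −5.15 (SE 0.12, edgeR adjusted p = 2.1e-06), Osi20 with −7.07 (SE 1.10, edgeR adjusted p = 0.0022) and Cpr65Ea with −5.94 (SE 0.11, edgeR adjusted p = 1.7e-06). ftz-f1 dropped too, at −3.22 (SE 0.09, edgeR adjusted p = 2.5e-06). Gasp, Osi20, Cpr65Ea and ftz-f1 were therefore higher at 14–14.5 h than in the 2–4 h and 17–17.5 h windows.

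Other lists were mostly higher at 17–17.5 h. Gut genes rose in 20 of 25 tested cases and fell in 3 (median 3.79), all 14 tested glycolysis genes rose (median 0.99), proton pump subunits rose in 17 of 22 and fell in 2 (median 1.01), and respiratory chain subunits rose in 59 of 66 and fell in 0 (median 0.38). alphaTry changed by 5.03 (SE 0.10, edgeR adjusted p = 1.7e-06) and ple by 2.61 (SE 0.09, edgeR adjusted p = 4.8e-06). Muscle and neuronal effectors had positive medians smaller than those of the gut, glycolysis and proton pump lists. Sarcomere genes had a median of 0.37 with 17 of 27 higher and 2 lower, and synaptic genes 0.33 with 16 of 22 higher and 0 lower. Neurotransmitter genes had 0.54 with 18 of 26 higher and 3 lower, and genes of neuronal excitability and identity 0.49 with 14 of 21 higher and 6 lower. Muscle transcription factors and fusion genes fell in 13 of 16 and rose in 1 (median −0.85). Cuticle protein families divided, with 30 of 59 Cpr genes higher and 22 lower, and 18 of 49 Tweedle, Lcp, Ccp and Edg genes higher and 24 lower.

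**Figure D5:**
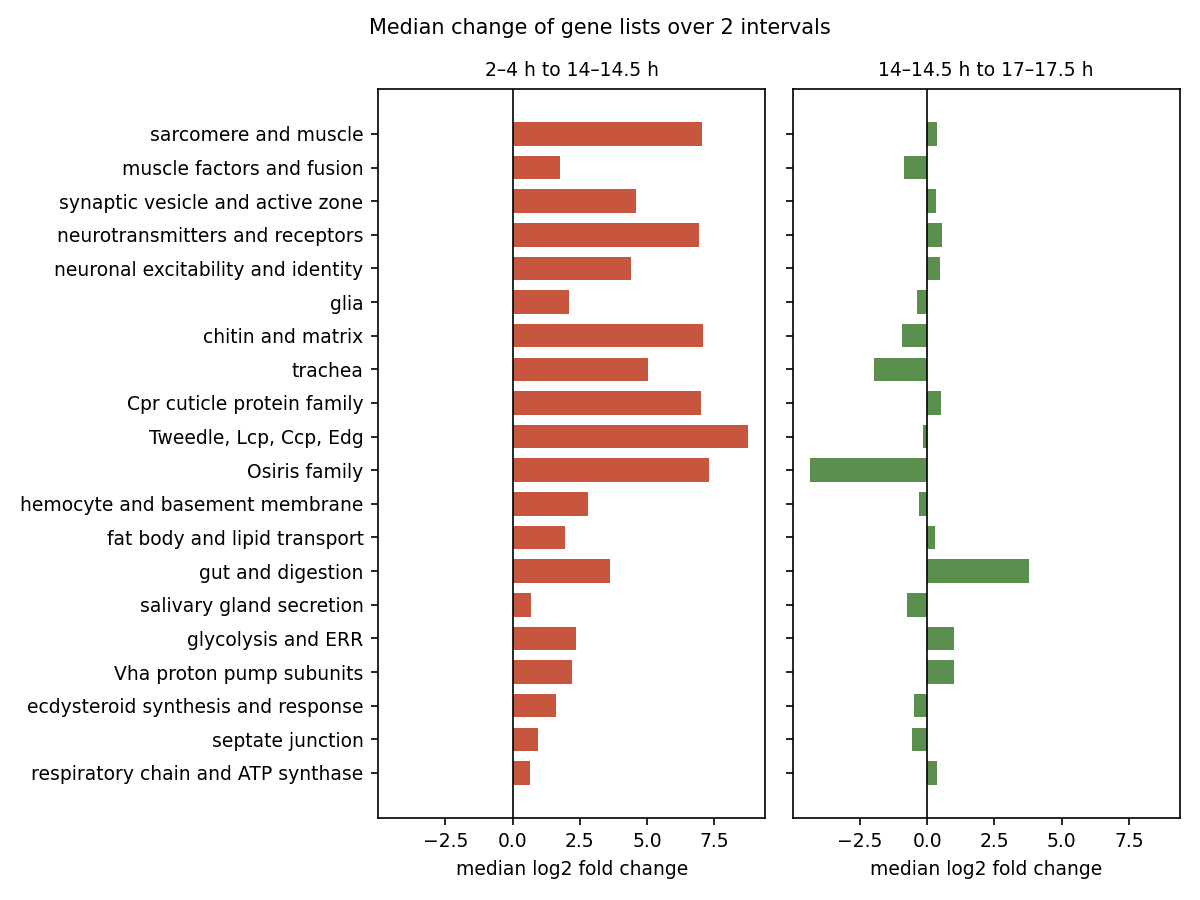
Median log2 fold change (x axis, same scale in both panels) of the tested members of 20 gene lists (y axis) from 2–4 h to 14–14.5 h (left, red bars) and from 14–14.5 h to 17–17.5 h (right, green bars). All medians on the left are above 0, while those on the right run from −4.34 for the Osiris family to 3.79 for gut and digestion, and the panels share the 14–14.5 h libraries. The lists drawn were chosen with earlier results of these data known, so the direction on the left tests nothing. Members tested can differ between the panels, as for gut and digestion with 21 on the left and 25 on the right.

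The broader 14–17 h libraries, set against the same 2–4 h libraries, share those early libraries with the comparison above, and their values are given side by side only. The sarcomere median was 7.06 over 26 tested genes at 14–14.5 h and 7.51 over 27 at 14–17 h. That of synaptic genes was 4.58 and 4.59, that of DNA replication −3.66 and −3.71, and that of pair-rule genes −2.69 and −3.69. Gut genes had 3.61 over 21 tested genes and 6.84 over 25. The paired medians of gut and sarcomere genes therefore do not cover the same members. Cytosolic ribosomal proteins had −0.61 and −0.19 and cell death genes 0.13 and −1.16. For single genes, Act57B had 7.23 and 7.03, kuk −5.04 and −4.35, and Gasp 9.97 and 7.72. Some smaller changes were not seen at 14–17 h. RpL36 had 1.18 and 0.09 and mt:CoIII 1.12 and 0.075, while sqh changed sign, with 0.41 and −0.39. The 14–17 h libraries overlap the 2–4 h libraries in their mt:lrRNA share, and what that property contributes to these values was not tested.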

How the data were processed

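Whole-embryo polyA mRNA was measured in 11 libraries, of which 5 enter the main comparison. Per the labels and the study's methods, the authors extracted RNA with a Maxwell kit, selected it on oligo(dT) beads, prepared libraries with a TruSeq kit, called bases with CASAVA 1.8.2 and quantified with kallisto (version not given in the sources used here) on dm6. The deposited estimated counts per gene are kallisto's, in which reads compatible with several genes are divided. The deposited TPM values, also from the authors' kallisto run, were used here only for the mt:lrRNA share.

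Estimated counts were rounded and tested with edgeR 4.0.16 in R 4.3.3 (TMM factors, edgeR's filter on low counts, quasi-likelihood F test, two-sided, Benjamini-Hochberg adjustment over all genes tested). CPM used TMM-scaled library sizes. The main fit held the 3 libraries at 2–4 h and 2 at 14–14.5 h, and separate fits gave the other windows. The code was tested on simulated data. Alternatives were DESeq2 1.42.0, other scalings and filters, all 11 libraries, no mitochondrial genes, a replicate block, a 2-fold test and each library left out. List values over members that overlap no other gene and have whole counts are an alternative chosen after the data were seen. Symbols and overlaps came from Ensembl release 115. No fold is called exact for a gene at 0, whose fitted value depends on the prior count, and its bound uses 3 counts per library.

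The rule named, per list, the 2 genes with the most estimated counts among those called in the list's main direction and the 1 with the most called in the other, plus, each way, the 10 largest called changes with windows that did not overlap and a mean of at least 10 CPM in the higher one. Other genes were chosen after their values were seen. The comparison, members and lists were chosen with earlier results of these data known. Squared differences between replicates were 2.34 to 6.03 times counting noise, so no library is a copy of another. Deviations of same-numbered libraries correlated at −0.0424 and −0.0627. With 2 late libraries, each value recurs with the opposite sign for the other library, so this cannot tell whether the numbers pair libraries. 6 listed symbols were not matched and not analysed here.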

Additional observations from a re-analysis of the deposited data

How the results depend on the processing

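Between 2–4 h and 14–14.5 h the count of genes higher was 5391 and ranged from 4268 to 5823 over the alternatives, and from 5093 to 5425 with 1 library left out. The count of genes lower was 5007, with 3490 to 5360 and 4630 to 5288. Between 14–14.5 h and 17–17.5 h a test against a 2-fold change called 1401 genes higher and 760 lower in place of 3607 and 3554, since it asks for larger changes. Leaving out 1 library there gave 3027 to 3547 higher and 2493 to 3261 lower. A fit with the replicate number as a block called 5188 genes higher and 4683 lower by 14–14.5 h, and 3426 and 3260 by 17–17.5 h, and 7 of the 126 named genes lost their call under that block. None of the named genes reversed under the alternatives run, and 34 lost their call in the 2-fold test, 11 without 14–14.5 h replicate 1, 7 without 2–4 h replicate 3 and 4 or fewer in each other alternative.

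With 3 and 2 libraries, no batch named in the labels, and reads divided among overlapping genes, changes near the shift between scalings and genes listed at 0 are the least certain values. With 1 library left at 14–14.5 h, that library is assumed to vary like the others. Levels within a few counts of 0 limit the fold of the cuticle and Osiris genes, and the summed early signal of the Osiris family and of the Tweedle, Lcp, Ccp and Edg genes lies mostly in replicate 1. With 1 library left out, the median log2 fold change was 6.59 to 10.69 for the Osiris family and 8.26 to 9.80 for the Tweedle, Lcp, Ccp and Edg genes.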
